A study of Homo sapiens with 2 samples.

Results

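OGT, the gene of O-linked N-acetylglucosamine transferase, was followed in RNA libraries of 95D, a cell line from human lung cancer, kept without glutamine or without glucose. Its members were the rows of the deposited files that carry the gene name OGT and a number. They were 5 of the 6 rows listed for OGT, out of 18663 rows with a number, and OGT was 1 of 9253 names in the files. The remaining OGT row held a mark in place of a number in both libraries. The gene was chosen by its measured values, because it stood high under glutamine deprivation and was listed at 0 under glucose deprivation, so its level and rank below are a description and no test is attached to them.

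The labels give 2 samples, 1 of glutamine-deprived and 1 of glucose-deprived wild-type 95D cells. Both cultures had 24 h in complete medium and then 48 h in medium that lacked the nutrient and held dialysed serum. The series' title and design text speak of RNA pulled down with ALKBH5, an m6A demethylase, but the labels describe total RNA depleted of ribosomal RNA and name neither sample as a pull-down or an input. An untreated or fully fed sample is not analysed here, so neither library can be set against normal growth. The value column of the glucose-deprived file is headed Glu, a letter code also used for glutamate, and the table column named in the label of the glutamine-deprived sample is that of the glucose-deprived one. The groups therefore rest on the sample titles and treatment labels.

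OGT is the only enzyme known in human cells to attach N-acetylglucosamine to serines and threonines of nuclear and cytosolic proteins, and OGA removes the sugar again. The donor, UDP-N-acetylglucosamine, is made by the hexosamine pathway from glucose, glutamine, acetyl-CoA and uridine nucleotide, which is why the modification is described as nutrient sensing. The OGT transcript is also known for a detained intron, kept in part of the nuclear RNA and spliced out more when the protein modification falls. In the RefSeq annotation of GRCh38.p14 the gene lies on the plus strand of chromosome X, at chrX:71533104-71575892, and spans 42789 bases. The submitters' processing notes name hg38, the same assembly. The deposited files head their name column as long non-coding RNA genes and give no transcript identifier or coordinate. Which OGT transcript, exon or intron each row stands for is therefore unknown, and a value under the name is not taken as the level of OGT messenger RNA.

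The deposited values have no stated unit. They climb in equal steps of 0.791 in the glutamine-deprived and 1.26 in the glucose-deprived library, so whole numbers could be recovered from them. These are called recovered reads. Whether they were counted directly or estimated and divided among the rows of a gene is not stated. The steps multiply to 1.00, as they would if a factor per library had already brought both to a common scale, but no label says how the factors were set. For OGT, PGM3, NONO and the medians, differences are therefore given both as deposited and rescaled to equal sums, without a choice between them. FN1, TGFBI and HSPA5 are given below as deposited only. They are higher in the glutamine-deprived library as deposited and in the glucose-deprived library after rescaling, so their direction depends on the scaling. The recovered reads came to 1442570 in the glutamine-deprived and 42827 in the glucose-deprived library, and cover only the rows with a number. In the glutamine-deprived library 18564 of the 18663 rows were above 0, against 474 rows in the glucose-deprived library. Epithelial and mesenchymal markers were listed under their names. KRT8 stood at 143 in the glutamine-deprived and 199.8 in the glucose-deprived library. KRT18 at 75.1, KRT19 at 42.6 and KRT7 at 9.47 were above 0 in the glutamine-deprived library only. In the glucose-deprived library 95.8% of all names were listed at 0, so a 0 there is no result about these markers or those that follow. Among mesenchymal markers, FN1 stood at 963 in the glutamine-deprived and 344 in the glucose-deprived library and TGFBI at 331 in the glutamine-deprived and 138 in the glucose-deprived library. VIM had 75.9 in the glutamine-deprived library and a listed 0 in the other, and CDH2 had no number. EPCAM and CDH1 had no number in either library, and of the lung markers NAPSA alone had one, at 18.9 in the glutamine-deprived and 161 in the glucose-deprived library. Of the 6 markers of blood, endothelial, fibroblast and liver cells, COL3A1 and ALB had numbers, 2.35 for COL3A1 and 1.56 for ALB in the glutamine-deprived library and 0 for both in the other.

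The value of OGT was concentrated in a single row. In the glutamine-deprived library the highest OGT row stood at 3296, or 4166 recovered reads (95% Poisson interval 4040 to 4294). The next row stood at 320, from 404 reads (366 to 445), a value 10.3-fold smaller. The other rows stood at 67.2, 31.6 and 1.56, from 85, 40 and 2 reads. The steep drop from row to row left 88.7% of the OGT value in the highest row, 8.60% in the next, and 1.81%, 0.851% and 0.0421% in the rest. In the glucose-deprived library all 5 rows held the placeholder 1.39e-17 that stands where 0 is meant, which is far under the limit of 1e-09 for counting a value as 0. The lowest values above that limit anywhere in the files were 0.772 in the glutamine-deprived and 1.29 in the glucose-deprived library. No OGT row was above 0 in the glucose-deprived library, and each of the 5 was above 0 in the glutamine-deprived library. These intervals reflect counting alone: without molecular identifiers, reads cannot be treated as independent molecules.

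**Figure D1:**
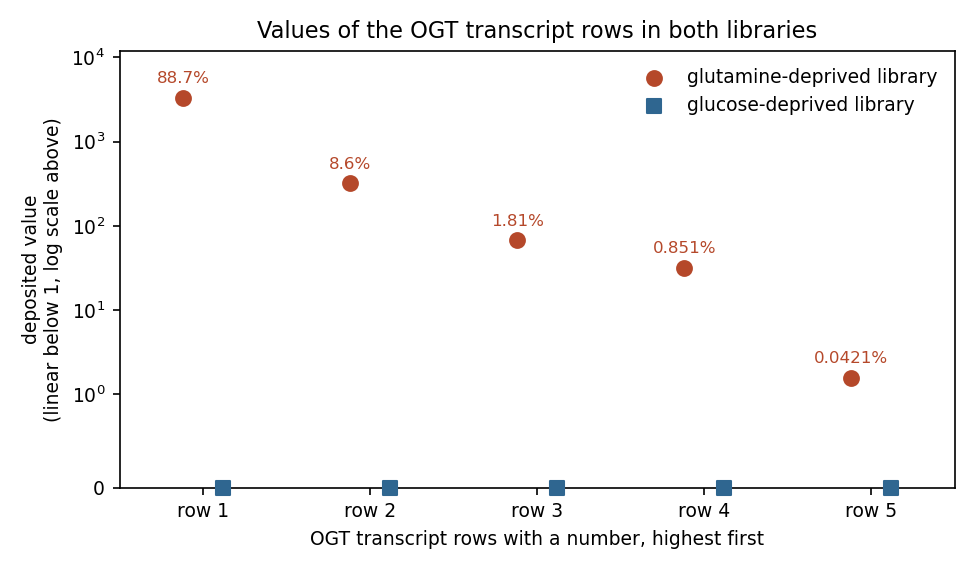
Deposited values of the 5 OGT rows that carry a number, with the glutamine-deprived library as circles and the glucose-deprived library as squares; the vertical axis is linear below 1 and logarithmic above. The percentages give each row's part of the OGT value in the glutamine-deprived library, from 88.7% down to 0.0421%, and every square lies at 0.

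Set among all 18663 rows of the glutamine-deprived library, the OGT rows ranked 4, 171, 1984, 4542 and 17398. Only a row each of XLOC_220679, an assembled locus without a symbol, MALAT1 and NEAT1, both nuclear long non-coding RNAs, stood higher than the highest OGT row. These rows stood far above it, at 442573, 68505 and 25393, against 3296 for OGT. The row below it belonged to UCHL1, a deubiquitinase, at 3100 with 3919 reads (3797 to 4044). The counting intervals of these OGT and UCHL1 rows overlapped only slightly. Such an overlap does not by itself decide the order of the rows, which was not tested. The lowest OGT row shared its value of 1.56, which stands for 2 reads, with 1143 other rows. One name thus held both one of the highest and one of the lowest rows of the library.

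Summed over its rows, OGT stood at 3716 in the glutamine-deprived library and at 0 in the glucose-deprived one. In log2(value + 1) this is a difference of 11.86, glutamine-deprived minus glucose-deprived, a number that the added 1 sets together with the level in the glutamine-deprived library. With 1 library per condition it has no replicate check. By this summed value OGT ranked 5 of 9253 names in the glutamine-deprived library, 181 times the median name. The values are not divided by transcript length, so the rank is one of reads under a name and not of molecules. HSPA5, an endoplasmic reticulum chaperone, ranked just above at 5299 reads (5157 to 5444), beyond the OGT interval of 4697 reads (4564 to 4833). SPDYE2 ranked just below at 4639 reads (4506 to 4774). The OGT and SPDYE2 intervals shared most of their range, and the order of ranks 5 and 6 was not tested. The interval of UCHL1 at rank 7, with 4035 reads (3911 to 4161), lay below both. Without its highest row, a setting chosen after the values were seen, OGT would stand at 420 and rank 206.

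OGT took 0.326% of the recovered reads of the glutamine-deprived library (95% Wilson interval 0.316 to 0.335%). In the glucose-deprived library it had 0 of 42827 recovered reads, which allows a share of up to 0.00700% as far as counting error goes. That limit covers counting error alone, and in this library a listed 0 was the usual state, shared by 8859 other names (95.8% of all names, OGT included). Rows above 0 had a median of 17 recovered reads in the glutamine-deprived library, against 70 in the glucose-deprived library. Rows of 3 reads or fewer made up 10.7% of those above 0 in the glutamine-deprived library (1989 of 18564), against 13.9% in the glucose-deprived library (66 of 474). The listed 0 of OGT is accordingly not taken as absence of its RNA, and in bulk RNA a smaller number of cells and less RNA per cell cannot be told apart.

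Names that ranked high in the glutamine-deprived library had a value above 0 in the glucose-deprived library more often, yet high names at 0 were found too. Of the 10 highest names, 7 had a value above 0 under glucose deprivation, and the 3 others were OGT, SPDYE2 and UCHL1. Of ranks 11 to 100, 35 of 90 were above 0, of ranks 101 to 1000, 126 of 900, and of the lower ranks, 225 of 8253. By row the share at the top was smaller, 3 of the 10 highest rows and 24 of the next 90. HSPA5 shows the difference between name and row. Its name stood at 4192 in the glutamine-deprived and 357 in the glucose-deprived library, but its highest row in the glutamine-deprived library, at 2675, was listed at 0 in the glucose-deprived library. Of 276 names with several rows and a value above 0 in both libraries, 107 had the same highest row in both and 169 had another. OGT, with no row above 0 in the glucose-deprived library, allows no such comparison.

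**Figure D2:**
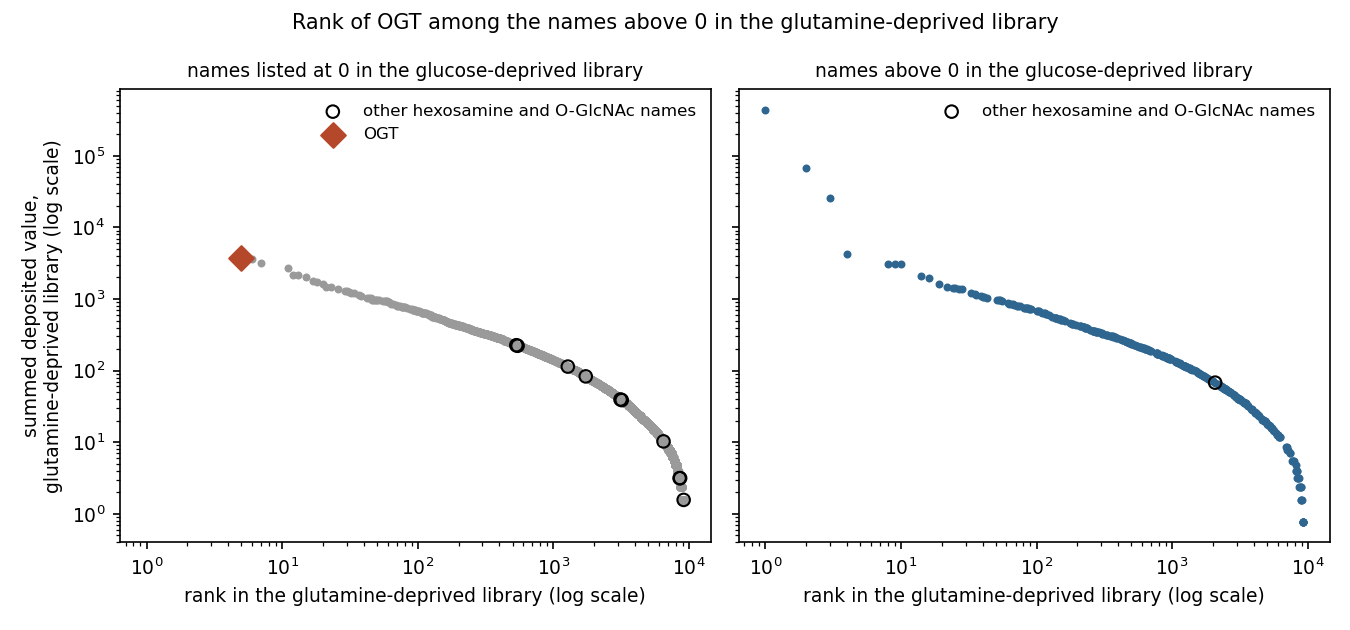
Summed deposited value of each name in the glutamine-deprived library against its rank there, both on log scales, split into names listed at 0 (left) and above 0 (right) in the glucose-deprived library. OGT (diamond, 3716, rank 5) is the highest name of the left panel; open circles mark the other hexosamine and O-GlcNAc names, of which PGM3 alone is on the right.

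Names with the pattern most like that of OGT were sought among those listed at 0 in the glucose-deprived library, with the absolute log2 difference from the OGT value in the glutamine-deprived library as the measure, over these 2 libraries. The closest were SPDYE2 at 3670, a difference of 0.02, UCHL1 at 3192, a difference of 0.22, and DYNC1H1, a dynein motor heavy chain, at 2725, a difference of 0.45. ADGRD1, an adhesion receptor, XLOC_218750, CEP72, a centrosomal protein, and PDE4D, a cyclic AMP phosphodiesterase, followed at 2155, 2149, 2038 and 1759. ENSG00000242588 at 1726, FTX, a long non-coding RNA, at 1626 and TNFAIP3, a negative regulator of NF-kB, at 1483 completed the 10. They reached such values in unlike ways. UCHL1 had 97.1% of its value in 1 of 3 rows and ENSG00000242588 had a single row, while DYNC1H1 spread over 29 rows with 31.9% in the highest and SPDYE2 over 6 rows with 37.6%.

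The division of OGT among its rows was set beside the 289 other names with 5 numbered rows and a value above 0 in the glutamine-deprived library. The percent in the highest row had a median of 47.9% over these names and OGT, with quartiles at 39.1% and 58.3%, against 88.7% for OGT. In 5 of the others it was as high or higher: DNAH14 with all of its value, UBE2D3 at 93.4%, DNAJC10 at 89.99%, TMEM259 at 89.4% and ANKS3 at 88.9%. Their summed values lay between 55.4 and 411. None of the other 5-row names reached the OGT value, the highest being BSG, a partner of lactate transporters, at 1311. Among the 20 highest names of the library, 18 had several rows, with a median of 41.3% in the highest row. MALAT1, NEAT1 and UCHL1 were the 3 of them above OGT.

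**Figure D3:**
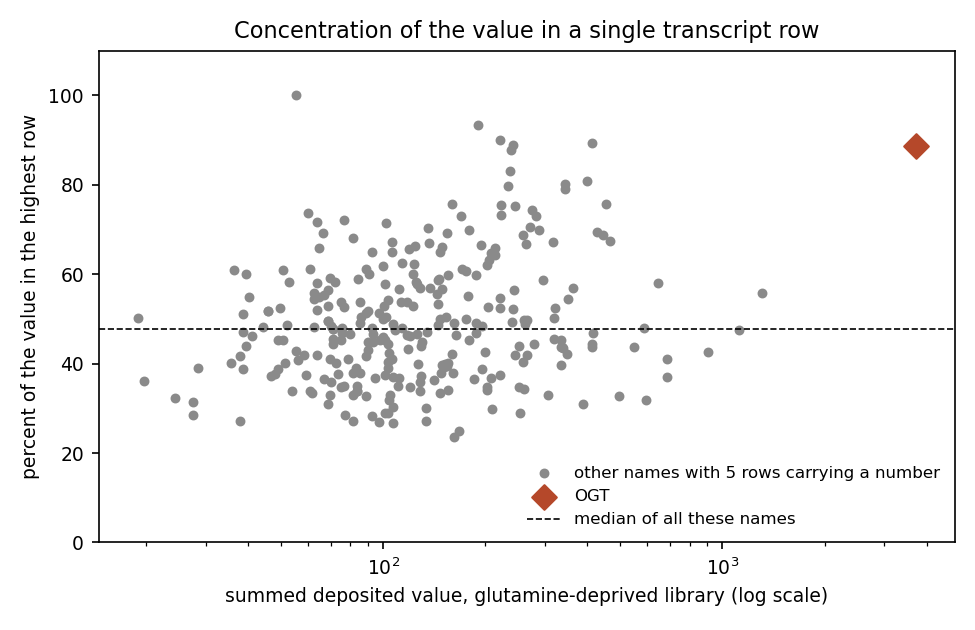
Percent of a name's value that lies in its highest row against its summed value (log scale), for the 290 names with 5 numbered rows and a value above 0 in the glutamine-deprived library. The dashed line is their median, 47.9%, and OGT (diamond) stands at 88.7% and 3716, to the right of all other points.

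With the sum of absolute differences between sorted row percents as the measure, and a value of at least 100, the names divided most like OGT were TAF1C, TMEM259, DNAJC10, ANKS3 and UBE2D3. TAF1C, a subunit of the RNA polymerase I initiation factor, was the closest, at a summed difference of 4.24 percentage points. Its rows held 87.7%, 7.64%, 3.32%, 0.657% and 0.657% of its value of 238. TMEM259 and DNAJC10, a disulfide reductase of the endoplasmic reticulum, differed by 4.68 and 5.08 percentage points, and ANKS3 and UBE2D3, a ubiquitin-conjugating enzyme, by 8.06 and 13.1. None of the 5 was above 0 under glucose deprivation, where 95.8% of all names were listed at 0. A division of this shape therefore also occurred in names with a far smaller value than OGT.

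The counterpart of OGT, the hydrolase OGA, had a single row. It stood at 83.0 in the glutamine-deprived library, from 105 reads, and at 0 in the glucose-deprived library. The measured names of the hexosamine pathway, which supplies the donor of OGT, lay on both sides of the median name, 20.5 in the glutamine-deprived library. GFPT2, which transfers the amide of glutamine to fructose 6-phosphate, stood at 3.15 in the glutamine-deprived library, from 4 reads. UAP1, which makes UDP-N-acetylglucosamine in the last step, also stood at 3.15, and its relative UAP1L1 at 226. None of these 3 was above 0 under glucose deprivation, where 95.8% of all names were listed at 0. GNPNAT1, the acetyltransferase of the pathway, had a row without a number, and GFPT1 had no row under its name.

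PGM3, the phosphoacetylglucosamine mutase, was the 1 name of the list above 0 in both libraries and went the other way, at 67.9 in the glutamine-deprived and 147 in the glucose-deprived library. This is a log2 difference of -1.10 as deposited and of -5.48 with each library rescaled to a sum of 1000000. For the 351 names above 0 in both libraries the median was 0.607 as deposited and -3.77 after this rescaling. The PGM3 value in the glucose-deprived library lay in 1 row, from 116 reads. That row stood at 17.4, from 22 reads, in the glutamine-deprived library. The largest PGM3 row of the glutamine-deprived library, at 21.3, was listed at 0 in the other. PGM3 thus had a value in the library where OGT had none, on a row that was not its highest in the glutamine-deprived library.

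The enzymes of salvage and breakdown spanned the range of the list below OGT. AMDHD2, which removes the acetyl group of N-acetylglucosamine 6-phosphate, was at 222, and NAGK, the kinase that salvages N-acetylglucosamine, at 114 in the glutamine-deprived library. GNPDA1 and GNPDA2, deaminases that return glucosamine 6-phosphate to glycolysis, were at 38.7 and 10.3, and RENBP, an epimerase of N-acetylglucosamine, was at 1.56. SLC35A3, a Golgi transporter of UDP-N-acetylglucosamine, was at 39.5. None of these 6 was above 0 under glucose deprivation, where 95.8% of all names were listed at 0. EOGT, the glycosyltransferase that adds N-acetylglucosamine to secreted proteins, had rows without a number.

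Of the 18 entries of the hexosamine and O-GlcNAc list, 12 had a number. Of these, 11 passed 2-fold upwards under glutamine deprivation and 1, PGM3, passed it downwards, on the log2(value + 1) scale. Over all 9253 names 97.4% were at least 2-fold higher and 1.42% at least 2-fold lower, so the count of 11 is near the background and is no result about the list. Only the 393 names above 0 under glucose deprivation could be at least 2-fold lower, and 131 of them were. The 11 include OGT, which chose the subject. The median log2 difference of the list was 5.33, against 4.32 over all names. Without OGT the 11 other members summed to 809.5 in the glutamine-deprived library, and the value of OGT was 4.59 times that sum. On values not divided by length, OGT was 16.4 times as high as the next member, UAP1L1, at rank 533. Without its highest row OGT would stand at 420, below the sum of the 11 others but above UAP1L1 at 226.

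**Figure D4:**
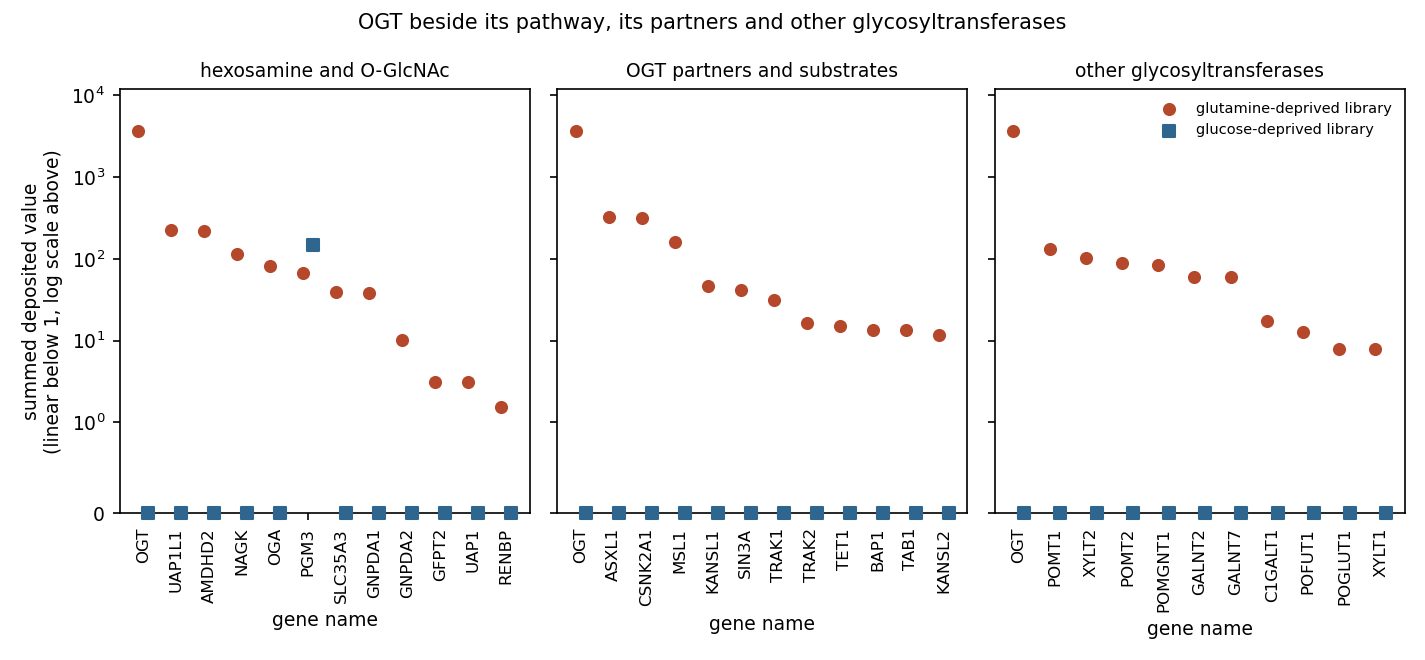
Summed deposited values of the measured names of 3 lists in the glutamine-deprived (circles) and glucose-deprived (squares) library, with OGT repeated at the left of each panel; the vertical axis is linear below 1 and logarithmic above. OGT lies above every other circle, and PGM3 at 147 is the only square above 0.

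Partners and substrates of OGT were present at lower values. Of 18 entries 11 had a number, and none of the 11 was above 0 under glucose deprivation. Of all names, 95.8% were likewise listed at 0 there. ASXL1, a chromatin regulator that partners BAP1, stood at 323 in the glutamine-deprived library, CSNK2A1, a catalytic subunit of casein kinase 2, at 321, and MSL1, of a histone acetyltransferase complex, at 159.7. KANSL1 was at 46.6 and KANSL2 at 11.8, both of the NSL acetyltransferase complex that holds OGT. SIN3A, a corepressor that binds OGT, was at 41.9. TRAK1 and TRAK2, mitochondrial transport adaptors that bind OGT, were at 31.6 and 16.6. TET1, a DNA demethylase, was at 15.01, and both BAP1, a deubiquitinase, and TAB1, an activator of the kinase TAK1, were at 13.4. HCFC1, the substrate that OGT cleaves, had no row under its name. All 11 passed 2-fold upwards under glutamine deprivation, again near the background of 97.4%, with a median log2 difference of 5.03.

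Glycosyltransferases that start or extend other kinds of O-glycan gave a further scale for the OGT value. Of 15 entries 10 had a number, between 7.89 and 131 in the glutamine-deprived library. None was above 0 in the other, where 95.8% of all names were listed at 0. The highest were POMT1, an O-mannosyltransferase, at 131, XYLT2, a xylosyltransferase, at 104 and POMT2 at 90.1. The lowest were POFUT1, an O-fucosyltransferase, at 12.6, and POGLUT1 and XYLT1 at 7.89 each. The sum over the 10 was 576, and OGT alone was 6.45 times as high. Without its highest row OGT would stand at 420, below that sum. All 10 passed 2-fold upwards under glutamine deprivation, beside 97.4% of all names, with a median log2 difference of 5.95.

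Genes next to OGT on chromosome X had few values. Of the 10 annotated genes on either side of it in RefSeq, 5 were listed and 2 had a number, both at lower coordinates. TAF1, the largest subunit of the general transcription factor TFIID, ends before OGT begins, at chrX:71366357-71530525. It stood at 48.2 in the glutamine-deprived library and at 0 in the glucose-deprived library. NONO, a nuclear RNA-binding protein of paraspeckles, at chrX:71283635-71301168, was above 0 in both, at 308 in the glutamine-deprived and 144 in the glucose-deprived library. Its log2 difference was 1.09 as deposited and -3.30 after rescaling each library to the same sum, so its direction depends on the scaling. The median over the names above 0 in both libraries changed direction too, from 0.607 to -3.77. As deposited both neighbours passed 2-fold upwards under glutamine deprivation, beside 97.4% of all names. GCNA and CXCR3, the nearest annotated genes on the far side, had no row under their names. The value of OGT was 10.4 times the sum of TAF1 and NONO in the glutamine-deprived library. Without its highest row OGT would stand at 420, against 356 for that sum.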

How the data were processed

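RNA was measured in 2 libraries of 95D cells, 1 per nutrient condition. The submitters' processing notes name HISAT2 2.0.5, StringTie and hg38 without the role of each; the counting tool, gene annotation, filters and normalization steps: not given in the sources used here. The deposited values are fractional, not counts, and per the file headers no unit is stated. Rows without a number were left out and values under 1e-09 set to 0. The deposited values up to 1000 reads followed an offset plus a step times a whole number, within 0.1 of a read for all 18536 glutamine-deprived and 472 glucose-deprived values; this gave the recovered reads used for depth and intervals, and the method was tested on simulated data. The table of the whole series duplicated both files and was set aside.

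Values were summed by name, and differences are log2(value + 1), glutamine-deprived minus glucose-deprived. Adding 1 shrinks the differences of low names. No test was run, because each condition has 1 library. OGT and the lists were chosen with earlier results of these data known. Named genes were all measured members of the lists (for other glycosyltransferases the 3 highest and 3 lowest), measured RefSeq neighbours, the 10 names nearest in level the 5 nearest in row division and the most abundant name of each library, XLOC_220679 in both; MALAT1, NEAT1, HSPA5, BSG and DNAH14 were named after their values were seen. Of 9253 names, 6861 were RefSeq symbols of GRCh38.p14. Intervals are 95% Poisson or Wilson; a count of 0 was taken to allow 3 reads. Calculations used Python 3.11.15, pandas 2.3.3, scipy 1.17.1 and statsmodels 0.14.6. Alternatives were another scaling, pseudocount, minimum, threshold and set of names.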

Additional observations from a re-analysis of the deposited data

How the results depend on the processing

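With OGT at 0 in the glucose-deprived library no setting could turn its direction, which also chose the gene. The size of the log2 difference, 11.86, depended on the scale: it was 11.67 with each library rescaled to 1000000, 7.54 after centring on the median ratio, 15.18 with a pseudocount of 0.1, 11.69 from the highest row of each name and 8.72 without the highest OGT row. The rank of 5 became 4 by highest row, 2 among protein-coding symbols, 4 without the most abundant name and 206 without the highest OGT row, and was 5 when OGT was set among the names above 0 in both libraries, to which it does not itself belong. The percent of the summed value, 0.326%, became 0.349%, 0.793%, 0.532%, 0.0369% and, with OGT added to the names above 0 in both libraries, 0.581%. Leaving out the highest OGT row was chosen after the data were seen. The percent in the highest row was 88.7% with rows of at least 5 and from recovered reads. The hexosamine and O-GlcNAc count of 11 of 12 was 11 of 12 after rescaling (96.0% of all names), 11 of 12 with a pseudocount of 0.1 (97.4%), 8 of 9 with a minimum of 5 (97.0%), which removes GFPT2, UAP1 and RENBP, and 10 of 12 at 4-fold (90.7%); its median of 5.33 became 5.14, 8.62 and 6.39 under the first 3. For the 2 measured neighbours of OGT the count of 2 became 1 after rescaling (96.0% of all names) and 1 at 4-fold (90.7%), since NONO no longer passed. The pseudocount moves the differences because one side is 0. Centring subtracts the median log2 difference of all names, 4.32, and leaving out the highest OGT row removes its value. These shifts follow from how the settings are built, and for the others the cause was not tested. Depth limits the lowest OGT row, at 2 reads; its part in the zeros of the glucose-deprived library was not tested. No paired analysis was possible because each condition has 1 library.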
